A study of Mus musculus with 6 samples.

Results

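The hypoxia-inducible factor (HIF) system consists here of 9 genes: the alpha subunits Hif1a, Epas1 and Hif3a, their partner Arnt, the ubiquitin ligase subunit Vhl, and the oxygen-sensing hydroxylases Egln1, Egln2, Egln3 and Hif1an. They were chosen by name, not by level, and all 9 had a named probe set among the 23185 that were tested. The samples were mouse ILC2s, innate lymphocytes that make type 2 cytokines, from lines of C57BL/6J mice grown with IL-2 and IL-33, each at 10 ng/ml. A lentivirus (LentiV2CRISPRGFP) brought in either a Myc guide or a non-target control guide, and GFP-positive cells were collected 6 days after transduction, so that controls too had been transduced, sorted and kept in both cytokines. Each group had 3 Affymetrix arrays of total RNA. Nothing in the labels gives the promoter that drives Cas9, the number of guides, whether a line was 1 clone, or whether replicate arrays stem from separate cultures; p-values therefore cover only the spread among these arrays, which may be technical.

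HIF is a pair of basic helix-loop-helix PAS proteins, an oxygen-regulated alpha subunit and the constant ARNT. In oxygen, prolyl hydroxylases (PHD1, PHD2 and PHD3, from Egln2, Egln1 and Egln3) mark the alpha subunit, VHL binds the mark, and the proteasome destroys the protein, while FIH (from Hif1an) hydroxylates an asparagine and blocks coactivator binding. In low oxygen these reactions slow, the alpha subunit accumulates and the pair binds hypoxia response elements, switching on genes of glucose use, blood vessel growth and, as feedback, Egln1 and Egln3. Control is thus largely at the protein level, which arrays of RNA do not measure.

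Gene start windows are shown for the genes on which the results turn: the 3 with the lowest values in knockout-labelled arrays relative to control (Egln1, Egln3 and Vhl), Hif1a as the main alpha subunit, and Egln2 as the remaining prolyl hydroxylase. Each runs from 250 bases before to 50 bases after the RefSeq start (GRCm38.p6), 5′ to 3′, with capitals on matches to the HIF core, ACGTG or GCGTG on either strand, or to the E-box CACGTG, which MYC and other helix-loop-helix factors can bind and which contains ACGTG on both strands.
Egln1 promoter (chr8:124949205-124949504, minus strand): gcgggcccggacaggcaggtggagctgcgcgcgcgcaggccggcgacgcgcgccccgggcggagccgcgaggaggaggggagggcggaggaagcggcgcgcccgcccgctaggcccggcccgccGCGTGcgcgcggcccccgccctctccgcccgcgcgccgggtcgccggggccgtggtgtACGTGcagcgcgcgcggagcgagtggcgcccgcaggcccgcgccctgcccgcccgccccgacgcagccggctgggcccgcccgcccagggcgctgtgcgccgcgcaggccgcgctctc
Egln3 promoter (chr12:54203825-54204124, minus strand): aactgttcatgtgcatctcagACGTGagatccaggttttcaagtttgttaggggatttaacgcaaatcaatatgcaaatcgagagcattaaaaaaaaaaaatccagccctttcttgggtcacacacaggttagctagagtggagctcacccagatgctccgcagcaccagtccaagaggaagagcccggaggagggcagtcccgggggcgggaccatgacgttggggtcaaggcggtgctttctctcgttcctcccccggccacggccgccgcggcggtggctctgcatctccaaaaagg
Vhl promoter (chr6:113623744-113624043, plus strand): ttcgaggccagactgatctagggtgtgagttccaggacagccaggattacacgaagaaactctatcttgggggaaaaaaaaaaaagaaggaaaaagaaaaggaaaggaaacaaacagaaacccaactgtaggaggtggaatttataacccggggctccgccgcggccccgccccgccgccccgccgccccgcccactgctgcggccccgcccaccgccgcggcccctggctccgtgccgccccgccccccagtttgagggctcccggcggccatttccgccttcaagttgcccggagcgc
Hif1a promoter (chr12:73907617-73907916, plus strand): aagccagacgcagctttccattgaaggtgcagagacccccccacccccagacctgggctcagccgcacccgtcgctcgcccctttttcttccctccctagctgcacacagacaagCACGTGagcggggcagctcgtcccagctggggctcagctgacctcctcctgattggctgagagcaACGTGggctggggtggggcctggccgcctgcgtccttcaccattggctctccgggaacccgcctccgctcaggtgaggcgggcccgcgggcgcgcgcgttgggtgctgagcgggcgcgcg
Egln2 promoter (chr7:27166753-27167052, minus strand): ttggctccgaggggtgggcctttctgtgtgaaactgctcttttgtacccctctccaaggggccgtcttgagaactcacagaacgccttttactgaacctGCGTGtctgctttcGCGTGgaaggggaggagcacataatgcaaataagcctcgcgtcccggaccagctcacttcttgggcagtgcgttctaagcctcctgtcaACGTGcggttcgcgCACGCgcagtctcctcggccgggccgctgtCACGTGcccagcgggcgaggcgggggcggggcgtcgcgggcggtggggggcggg

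Of the 9 genes, 8 had a window, and 6 of these held at least 1 HIF core, against 43.8% of the 32851 windows in the table. The E-box was in the windows of 2, Hif1a and Egln2, against 7.15% of all windows. In Egln1 the cores began 126 and 68 bases before the start, and in Egln3 a single core began 229 bases before it. The Vhl window held neither motif. In Hif1a the E-box began 135 bases before the start and a further core 70 bases before it. The first Egln2 window held 6 core matches, counted per strand, with its E-box 4 bases before the start. A match is a stretch of letters, not a measured binding site.

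Levels are log2 RMA values, in which 1 unit is a doubling, given as mean ± SD (n = 3 arrays per group). Differences are knockout-labelled minus control ± SE from limma, and a gene passed at an adjusted p (Benjamini-Hochberg over all 23185 genes) under 0.05. The targeted gene, Myc, did not go down: it was at 9.27, 9.33 and 9.39 in controls and at 9.55, 9.79 and 9.73 in knockout-labelled arrays, so the groups are named by label and each direction rests on those labels. Whether Myc was edited in these cells cannot be read from these values and was not tested. Array medians were 3.27 to 3.34 and upper quartiles 5.69 to 5.78. The ILC2 markers Gata3, Il5, Il13 and Il2ra were bright on all arrays, while Thy1 (3.02 to 3.38) and Rora (3.68 to 4.30) lay near the medians. Levels of ILC2 markers differed with the groups too. In 7 of 11 measured the groups did not overlap, against 19.8% of all genes. Knockout-labelled arrays were above in 4 (Il5, Il2ra, Icos and Il13), as in 9.25% of all genes. They were below in 3 (Gata3, Il7r and Ptprc), as in 10.6%. For Il13 the nearest arrays were only 0.001 log2 units apart. Il5 passed as higher in limma (0.49 ± 0.061, adjusted p = 0.0386; 0.0887 to 0.174 with 1 array left out) and the other 10 did not. Among markers of other cells, B cell genes lay below the array medians in both groups (3 of 3 measured), as did 4 of 5 NK cell and ILC3 genes, 4 of 6 T cell genes (Cd3e, at 1.87 to 2.23, among them), 3 of 4 mast cell and basophil genes, 2 of 4 myeloid genes and 1 of 4 stromal and endothelial genes. The mean of the measured myeloid genes was 3.73 to 3.82 on control and 3.56 to 3.68 on knockout-labelled arrays, that of the mast cell and basophil genes 3.04 to 3.08 and 2.99 to 3.09, that of the T cell genes 3.24 to 3.34 and 3.13 to 3.28, and that of the stromal and endothelial genes 4.63 to 4.81 and 4.81 to 4.87. The basophil protease gene Mcpt8 (7.85 to 8.09 in controls, 7.34 to 7.82 in knockout-labelled arrays), the T cell receptor complex gene Cd3g (5.25 to 5.60, and 4.83 to 5.19), the myeloid integrin gene Itgam (6.50 to 6.76, and 5.87 to 6.16) and the adhesion gene Pecam1 (9.37 to 9.43, and 9.62 to 9.69) were well above them and separated the groups without passing (limma's adjusted p = 0.207, 0.220, 0.0767 and 0.122). Each of these lists held both directions. Differences were positive for 3 and negative for 1 of the mast cell and basophil genes, and 2 and 4 of the T cell genes. They were positive for 1 and negative for 3 of the myeloid genes, and 3 and 1 of the stromal and endothelial genes. Dim Ms4a2, a mast cell and basophil gene, lay wholly above controls (1.85 to 1.90 against 1.58 to 1.73). The part of these genes in the results below was not tested, and in bulk RNA fewer cells of a type and less RNA per cell cannot be told apart.

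The hydroxylase genes Egln1 and Egln3 and the ligase gene Vhl gave the largest negative differences of the 9. They were 1.32-fold, 1.28-fold and 1.24-fold lower in knockout-labelled arrays, without passing, while Hif1a was nearly level and Epas1 had a positive difference. In limma, 0 of the 9 passed, where 105 genes (0.453%) of all tested did, 0.254% as higher and 0.198% as lower. Before adjustment, 3 of 9 were lower at p under 0.05 and 0 were higher; of all genes 14.9% met that limit, 7.91% as lower and 6.97% as higher. All 9 are among the brighter 11593 genes (mean level at or above the median), and when those were tested alone 15.5% were lower and 8.56% higher at that limit. The groups did not overlap in 4 of 9 (Egln1, Egln3, Vhl and Arnt) and in 19.8% of all genes. In these 4 every knockout-labelled value lay below every control value, as in 10.6% of all genes, and in 0 of 9 above, as in 9.25%. Log2 differences were negative for 7 of 9 with a median of −0.093, against 47.8% of all genes and a median of 0.0077. Of the brighter 11593 genes 58% were negative, with a median of −0.030.

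**Figure D1:**
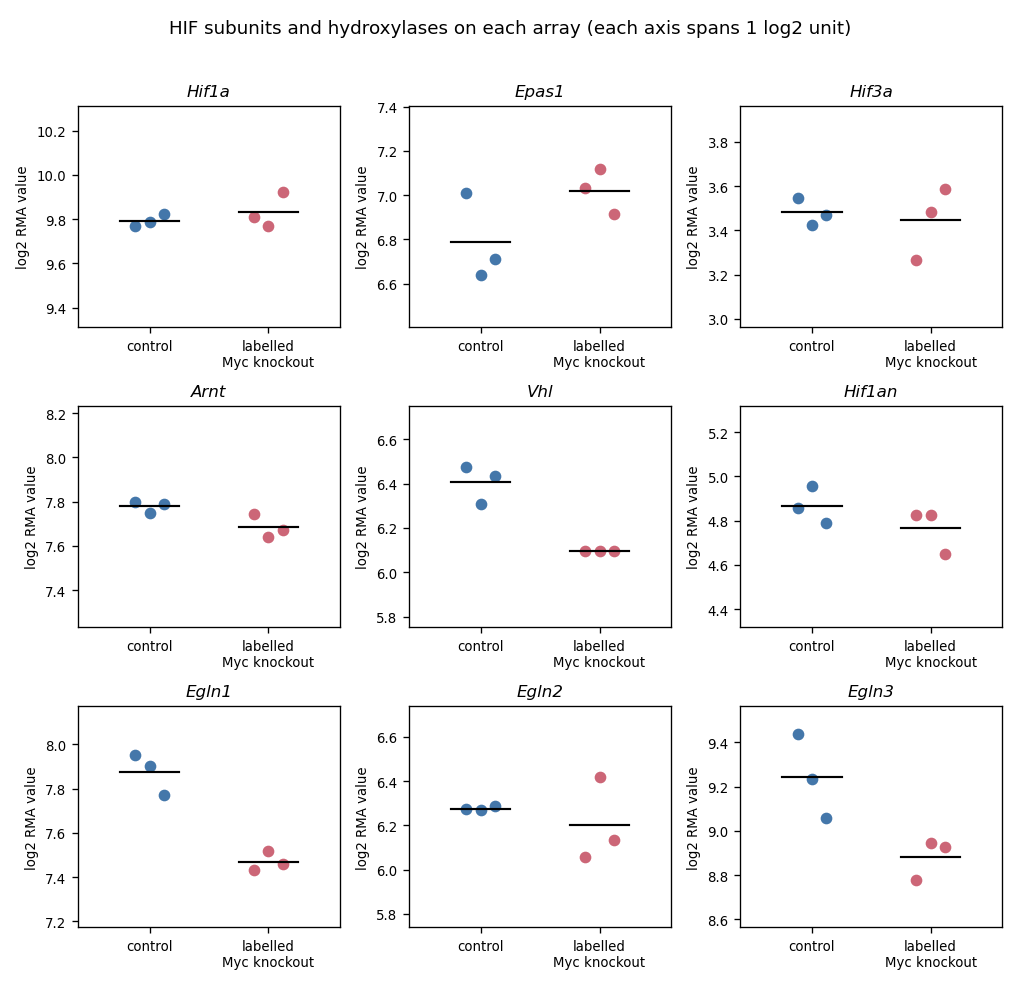
Log2 RMA value (vertical axis, 1 log2 unit in every panel) of each gene on the 3 control arrays (blue) and the 3 arrays labelled Myc knockout (red); black bars are group means. Egln1, Egln3, Vhl and Arnt show no overlap between groups, and the 3 red Vhl points share 1 value, 6.10.

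Hif1a encodes HIF-1α, the alpha subunit found in most cells. Its values were 9.77, 9.79 and 9.82 in controls and 9.81, 9.77 and 9.92 in knockout-labelled arrays. The groups overlapped, with replicate 3 of the knockout-labelled arrays highest. The difference was 0.040 ± 0.063 (limma's adjusted p = 0.795), and its 95% interval, −0.11 to 0.19, spans folds of 0.926 to 1.14. Larger changes of this transcript in either direction lie outside that interval. Without replicate 3 of the knockout-labelled arrays the difference was −0.0044.

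Epas1 encodes HIF-2α, an alpha subunit with a narrower set of tissues and targets. It was at 7.01, 6.64 and 6.71 in controls and at 7.03, 7.12 and 6.91 in knockout-labelled arrays. Control replicate 1 reached into the range of the other group, while the remaining controls lay below it. The means were 6.79 ± 0.20 and 7.02 ± 0.10, a difference of 0.23 ± 0.11 that did not pass (limma's adjusted p = 0.389; 95% interval −0.035 to 0.50). Without control replicate 1 it was 0.34 (unadjusted p = 0.00809, limma's adjusted p = 0.262), and under cyclic loess it was 0.27 (unadjusted p = 0.0412, limma's adjusted p = 0.334). Other settings made it smaller. It was 0.16 without control replicate 2 (limma's unadjusted p = 0.232) and 0.21 under median centring (limma's unadjusted p = 0.115).

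Hif3a, whose product can dampen the other alpha subunits, lay close to the array medians. Its values were 3.55, 3.42 and 3.47 in controls and 3.27, 3.48 and 3.59 in knockout-labelled arrays, which spread more widely and enclosed the controls. The difference was −0.036 ± 0.093 (limma's adjusted p = 0.880), and 0.053 without replicate 1 of the knockout-labelled arrays. At this brightness a probe set is near background, so the values cannot show a lack of change.

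Arnt, the gene of the shared partner HIF-1β, was at 7.80, 7.75 and 7.79 in controls and at 7.74, 7.64 and 7.67 in knockout-labelled arrays. The groups did not overlap, but their nearest arrays were 0.002 log2 units apart. The difference of −0.093 ± 0.057 did not pass (limma's adjusted p = 0.488), with a 95% interval from −0.23 to 0.044.

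Vhl encodes the recognition subunit of the ligase that binds hydroxylated HIF-α. It was at 6.48, 6.31 and 6.43 in controls and at 6.10 on each of the 3 knockout-labelled arrays. All controls were higher. The difference was −0.31 ± 0.064 (95% interval −0.46 to −0.16, unadjusted p = 0.00217, limma's adjusted p = 0.109). Among the 11593 genes at or above the median level it passed (limma's adjusted p = 0.0397), as did 4.74% of those genes. The SD of 0 in knockout-labelled arrays is not a measure of precision: RMA summarises probes by median polish, which can give arrays the same value, and 413 genes (1.78%) had 3 equal values in that group.

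Egln1 encodes PHD2, the main oxygen sensor for HIF-1α in most cells, and showed the clearest difference of the 9 by p. Its values were 7.95, 7.90 and 7.77 in controls and 7.43, 7.52 and 7.46 in knockout-labelled arrays. The lowest control lay above the highest array of the other group. The means were 7.88 ± 0.092 and 7.47 ± 0.045, a difference of −0.41 ± 0.068 (95% interval −0.57 to −0.24). Its unadjusted p was 0.000726 and limma's adjusted p was 0.0767, above the threshold. When the prior variance followed intensity, or among the brighter 11593 genes, the same difference passed (limma's adjusted p = 0.0282 and 0.0248), where 1.6% and 4.74% of genes did. Leaving out 1 array at a time gave −0.46 to −0.37, with limma's adjusted p = 0.166 to 0.22.

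Egln3 encodes PHD3, known for strong induction by hypoxia. It was at 9.44, 9.23 and 9.06 in controls and at 8.78, 8.94 and 8.93 in knockout-labelled arrays. The groups were separate, 0.12 log2 units apart at their nearest arrays, while controls spread over 0.379, with control replicate 1 highest. The difference of −0.36 ± 0.11 (95% interval −0.62 to −0.10, unadjusted p = 0.0132) did not pass, with limma's adjusted p = 0.213. It was −0.26 without control replicate 1 and −0.45 without control replicate 3.

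Egln2 encodes PHD1, the remaining prolyl hydroxylase, which is not known as a hypoxia-induced gene. Control values were nearly equal, at 6.27, 6.27 and 6.29, whereas knockout-labelled arrays gave 6.06, 6.42 and 6.13. Replicate 2 lay above all controls, and replicates 1 and 3 lay below them. The difference was −0.073 ± 0.10 (limma's adjusted p = 0.759). Without that replicate it was −0.18 (unadjusted p = 0.023, limma's adjusted p = 0.287), and without replicate 1 it was −9.2e-05.

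Hif1an encodes FIH, the asparagine hydroxylase that blocks coactivator binding. It was at 4.86, 4.96 and 4.79 in controls and at 4.83, 4.83 and 4.65 in knockout-labelled arrays. The ranges overlapped, and the difference of −0.10 ± 0.078 did not pass (limma's adjusted p = 0.582).

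**Figure D2:**
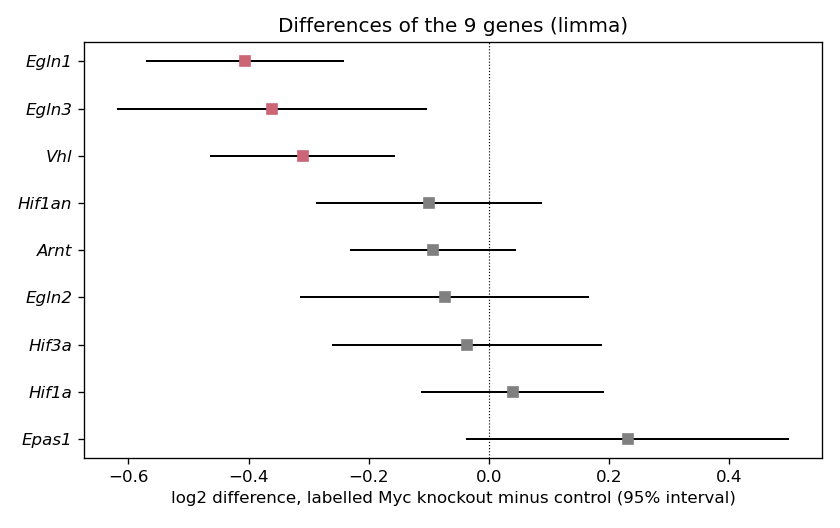
Log2 difference, labelled Myc knockout minus control, with its 95% interval from limma (not adjusted for the number of genes) for each gene. The intervals of Egln1, Egln3 and Vhl (red) lie below 0, and those of the other 6 (grey) include 0.

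Unequal change within the system was examined in 6 pairs, through the within-array log2 difference of a pair. With 3 against 3 arrays the exact two-sided permutation test cannot go below p = 0.1, before or after Benjamini-Hochberg adjustment over these pairs. The Egln1 difference was more negative than that of Egln2, at −0.33 (95% interval −0.62 to −0.047; exact p = 0.1, adjusted 0.2), with no overlap between groups. Between Egln1 and Egln3 the differences were −0.045 apart (interval −0.24 to 0.15; exact p = 0.7), an interval that leaves room for an unequal change of up to 0.24. Egln2 minus Egln3 gave 0.29 (interval −0.099 to 0.67; exact p = 0.2), and the groups overlapped. For the alpha subunit and its ligase, Hif1a minus Vhl was 3.39 in controls and 3.74 in knockout-labelled arrays, 0.35 apart (interval 0.15 to 0.55; exact p = 0.1, adjusted 0.2), without overlap. Hif1a minus Arnt gave 0.13 (interval −0.030 to 0.29, exact p = 0.1), also without overlap. Hif1a minus Epas1 gave −0.19 (interval −0.64 to 0.26, exact p = 0.3), and the groups overlapped. None of the 6 adjusted p-values was under 0.2.

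The genes whose arrays ran most like those of Egln1 were sought among 19524 protein-coding genes, by the root mean square difference of centred log2 values over the 6 arrays. The closest were Rab37 (0.028 log2 units), Atp1b2 (0.032), Ndrg1 (0.036), Fam171b (0.037) and Stat6 (0.037), where Egln1 itself varied by 0.21 about its mean. Their log2 differences were −0.40, −0.43, −0.39, −0.35 and −0.37, with limma's adjusted p from 0.0665 to 0.112, and 0 of 5 passed. These genes were picked for values like those of Egln1, so differences near its own follow from the choice. Ndrg1 is a known hypoxia-induced gene and Stat6 the signal transducer of IL-4 and IL-13. Likeness over 6 arrays that share the same group step is a description.

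No gene of the proteins that work with HIF passed. Of 16 measured partners (ligase subunits, coactivators, CITED inhibitors, SIAH ligases and chaperones), 0 passed in limma, where 0.453% of all genes did. Before adjustment 2 were lower and 0 higher at p under 0.05, with a median of −0.063. Of all genes 7.91% were lower and 6.97% higher at that limit. Among the brighter 11593 genes tested alone the shares were 15.5% and 8.56%, and 1 of the 16 partners lay below the array medians in both groups. Wsb1, whose product targets VHL for degradation, had the smallest p: it was at 7.12, 7.12 and 7.28 in controls and 6.96, 6.79 and 7.03 in knockout-labelled arrays. Its groups were separate, at a difference of −0.25 ± 0.085 (limma's adjusted p = 0.268). The coactivator genes Crebbp and Ep300 differed by −0.064 ± 0.069 and −0.012 ± 0.068, and the VHL complex genes Elob, Eloc and Cul2 by −0.15 ± 0.092, −0.10 ± 0.15 and 0.051 ± 0.079. None of these passed. In the other bHLH-PAS factors, relatives such as Ahr and Clock, 0 of 11 passed in limma. Before adjustment 1 was higher and 0 lower at p under 0.05 (median 0.042), beside the same shares of all genes. Sim1, the one with the smallest p, lay below the array medians at 2.59 to 2.91 and 2.91 to 3.16 (limma's adjusted p = 0.302).

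**Figure D3:**
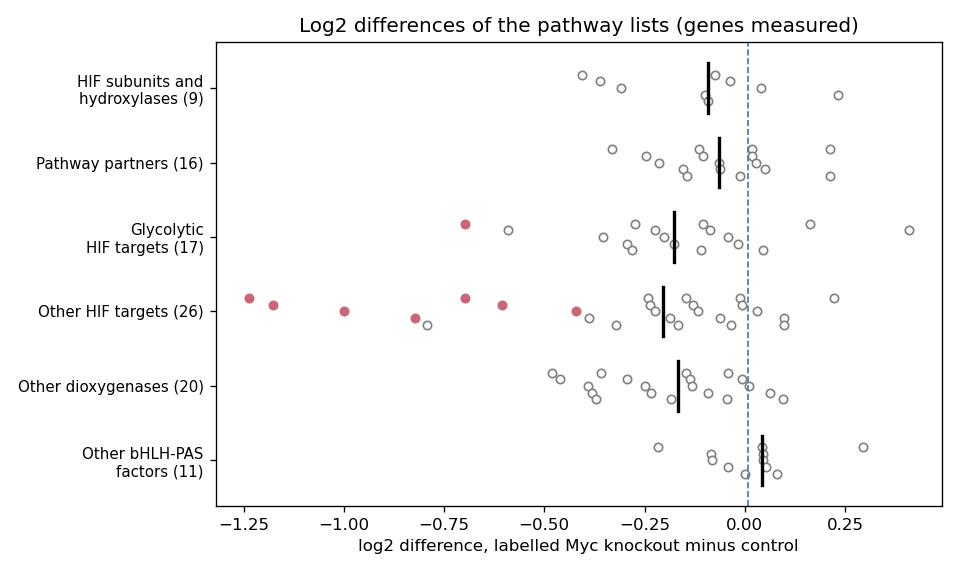
Log2 difference, labelled Myc knockout minus control (horizontal axis), of every measured gene of the 9 and of 5 related lists, with the number of genes in brackets. Filled red points passed over all genes, black bars are list medians and the dashed line is the median of all genes, 0.0077. The 8 filled points are all negative and lie in the HIF target lists.

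HIF target genes, the usual readout of the pathway, included 8 that fell in knockout-labelled arrays. Of 26 measured targets outside glycolysis, 7 fell and 0 rose over all genes in limma, and before adjustment 14 were lower and 1 higher at p under 0.05 (median −0.21). Of all genes 0.198% fell and 0.254% rose in limma, and 7.91% were lower and 6.97% higher before adjustment. Among the brighter 11593 genes tested alone, 2.98% fell, and 15.5% were lower before adjustment. The 26 targets are genes of diverse function that other regulators also control. In 15 of 26 every knockout-labelled value lay below every control value, against 10.6% of all genes. Of 17 glycolytic targets, 1 fell and 0 rose, with 8 lower and 1 higher before adjustment at p under 0.05 (median −0.18). In 10 of these 17 the values lay wholly below controls, against the same 10.6% of all genes. The lists were written with earlier results of these arrays known, so their direction is not independent evidence.

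Ddit4, a stress gene that restrains mTORC1, was at 6.82, 6.82 and 6.79 in controls and fell to 5.92, 5.90 and 5.62 (2.00-fold; limma's adjusted p = 0.0205). Ankrd37, a known direct HIF target, was at 6.65, 6.54 and 6.55 and fell to 5.62, 5.82 and 5.82 (−0.82 ± 0.076; limma's adjusted p = 0.0207). Bhlhe40, a transcriptional repressor induced by hypoxia, was at 7.88, 7.70 and 7.46 and fell to 6.44, 6.55 and 6.52 (−1.18 ± 0.11; limma's adjusted p = 0.0217). In all of these the nearest arrays of the groups were 0.72 to 0.91 log2 units apart. Vegfa, the vascular growth factor gene, fell from 7.76, 7.63 and 7.70 to 6.84, 7.07 and 7.07 (limma's adjusted p = 0.0353). Mxi1, a MAX partner that opposes MYC and is itself a HIF target, fell from 6.59, 6.48 and 6.49 to 5.84, 5.98 and 5.91 (limma's adjusted p = 0.0272). The other two of the 7, given here after their values were seen, were Stc2, a secreted glycoprotein gene (7.73 ± 0.011 to 7.30 ± 0.016), and Bhlhe41, the paralog of Bhlhe40 (4.81 ± 0.32 to 3.57 ± 0.096).

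Other targets varied. Bnip3, a mitophagy gene, was separate between groups but did not pass, at 6.78, 6.99 and 6.80 against 6.52, 6.57 and 6.52 (limma's adjusted p = 0.139). Pfkfb3, which drives phosphofructokinase, was the glycolytic gene that fell, from 6.35, 6.39 and 6.41 to 5.66, 5.67 and 5.74 (−0.70 ± 0.056; limma's adjusted p = 0.0162). Ldha, the lactate dehydrogenase gene, differed by −0.087 ± 0.053 and Pgk1, of lower glycolysis, by 0.045 ± 0.098 (limma's adjusted p = 0.486 and 0.859). For Ldha every knockout-labelled value lay below every control value, with the nearest arrays 0.034 log2 units apart. Pgk1 stood at 4.54 to 4.85 on all arrays, below the upper quartiles. The lactate exporter gene Slc16a3 went the other way, at 8.58, 8.57 and 8.59 against 8.76, 8.72 and 8.74, without passing. Car9, Adm, Lox and Epo, classical targets, stood between 1.70 and 4.03 on all arrays, and 4 of the 26 lay below the array medians in both groups, so these cannot show a change or its lack. In 6 of 6 fits that left out 1 array, 0 genes of either target list passed; fewer arrays were then tested, and limma's adjusted p for Ddit4, Ankrd37, Bhlhe40, Vegfa, Mxi1 and Pfkfb3 ranged from 0.0674 to 0.174. Before adjustment, 11 to 14 genes were lower at p under 0.05 in the wider target list of those fits and 7 to 8 in the glycolytic list. Of all genes 6.27% to 7.28% were lower at that limit in those fits.

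**Figure D4:**
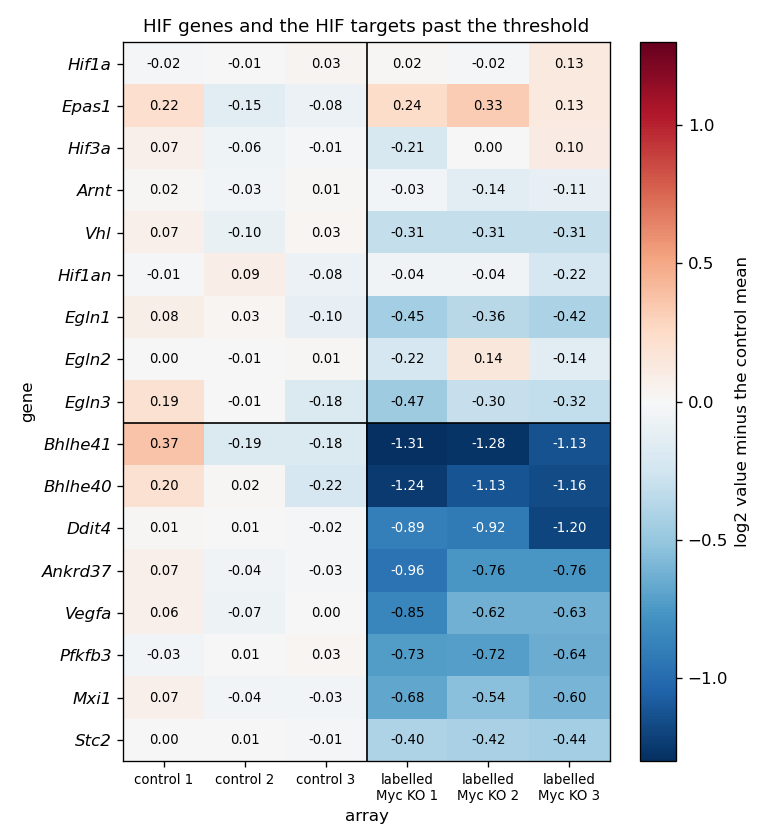
Log2 value minus the control mean of the gene (colour and printed number) on each of the 6 arrays, for the 9 genes (above the line) and the 8 HIF targets past the threshold. All 3 columns labelled Myc KO are negative for Egln1, Egln3, Vhl, Arnt and Hif1an and for all 8 targets. Control 1 is the highest control for 12 of the 17 genes, 6 of the 9 and 6 of the 8 targets. How often control 1 is highest over all genes was not counted.

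Other enzymes that use oxygen, all but Ado with the 2-oxoglutarate chemistry of the HIF hydroxylases, had mostly negative differences. Of 20 other oxygen-dependent dioxygenases, 0 passed in limma, 9 were lower and 0 higher before adjustment at p under 0.05, 17 had negative differences and the median was −0.17; of all genes 7.91% were lower at that limit and 47.8% negative, and of the brighter 11593 genes 15.5% and 58%. Kdm4b, a histone H3K9 demethylase gene known to be induced by hypoxia, had the smallest p: it was at 5.61, 5.51 and 5.73 in controls and 5.07, 5.21 and 5.13 in knockout-labelled arrays (−0.48 ± 0.078, limma's adjusted p = 0.0731). All its controls were higher. With 1 array left out it did not pass (limma's adjusted p = 0.156 to 0.221). It passed when the prior variance followed intensity or among the brighter 11593 genes (limma's adjusted p = 0.0400 and 0.0232). In each of those fits 4 of the list passed, all lower, beside 370 of 23185 genes (1.6%) and 549 of 11593 (4.74%) in either direction. The histone demethylase gene Kdm6a differed by −0.0064 ± 0.075, and Ado, a thiol dioxygenase, by 0.063 ± 0.10. The histone demethylase gene Kdm5a differed by −0.36 ± 0.089 (limma's adjusted p = 0.160), with all its controls higher. None of these passed over all genes, and each was chosen after its values were seen.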

How the data were processed

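Total RNA on 6 Affymetrix arrays, 3 per group by sample title, was analysed from the log2 values that the authors deposited. Per the submitters' processing notes these come from RMA (background correction, equal distributions on all arrays, 1 value per probe set), with limma 3.14.4 also named; a shift of all transcripts together is therefore removed. Array version and genome build: not given in the sources used here. Of 25206 probe sets, 23185 had 1 gene symbol in the annotation, 0 had several and 2021 had none (unnamed here). Some listed genes are not analysed here: 2 partners, 3 glycolytic targets, 1 other target and 4 markers.

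All named probe sets were fitted without a filter in R 4.3.3 with limma 3.58.1 (lmFit, eBayes), two-sided, with Benjamini-Hochberg adjustment over all of them and no covariate; the fit was tested on simulated data. Alternatives were a replicate block, a trend or robust prior variance, array weights, median centring, cyclic loess, a filter on dim genes, all probe sets and each array left out. Replicate numbers did not pair the arrays: same-numbered arrays correlated at −0.070, −0.012 and −0.018 in their deviations from group means. Arrays carry no read depth, and their number limits the precision.

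Genes, lists and tests were chosen with earlier results of these data known. Named were the 9 genes, of each list up to 3 genes past the threshold in each direction or else the one with the smallest p, Vegfa, Bnip3, Pfkfb3, Ddit4, Ankrd37, Mxi1, Ldha and Pgk1 whatever their value, and the 5 genes closest to the member with the smallest p; further examples were picked with their values known. Promoter windows are RefSeq's. Figures used matplotlib 3.10.9.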

Additional observations from a re-analysis of the deposited data

How the results depend on the processing

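Egln3, Epas1, Arnt, Egln2 and Hif1an kept their direction and did not pass under any of 14 alternatives each. Egln1 and Vhl kept their direction in all 14; Egln1 passed with an intensity trend and among the brighter genes, those with at least the median level (−0.406 in both), and Vhl in the latter (−0.31). Hif1a and Hif3a reversed once each, to −0.00442 without replicate 3 and 0.0526 without replicate 1 of the knockout-labelled arrays, and Pgk1 to −0.0287 without replicate 1 of those arrays (ranges −0.00442 to 0.0726, −0.107 to 0.0526 and −0.0287 to 0.126 with 1 array left out). With 1 array left out, differences ranged from −0.457 to −0.368 for Egln1, −0.453 to −0.264 for Egln3, −0.358 to −0.275 for Vhl and 0.159 to 0.344 for Epas1. The replicate block, on numbers that share only a label, gave 0 genes higher and 0 lower over all genes, and 0 in both target lists; Egln1 stood at −0.406 under it. Over all genes the trend gave 162 higher and 208 lower and the brighter genes 204 and 345, against 59 and 46; leaving out 1 array gave 0 to 2 higher and 0 to 1 lower. Lower genes in the glycolytic list numbered 5 with the trend, 5 among brighter genes, 2 under cyclic loess and 0 without any 1 array, and in the other target list 0 without any 1 array; lower dioxygenases numbered 4 with the trend and 4 among brighter genes. The causes of these shifts were not tested, and some of those fits also held fewer arrays or genes. Probe sets near the array medians, such as Hif3a, limit what can be seen.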
